A study of Homo sapiens with 24 samples.

Results

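The 30 genes described here are known targets of the transcription factor p53 and inhibitors of the cyclin-dependent kinases (CDKs) that drive cell division. They were chosen by symbol, and each was represented in each cell line by its brightest probe, the one with the highest mean over the 8 arrays of that line. Of the 30, 28 had a probe with 1 gene symbol, out of 20046 genes with such a probe in the series. FDXR, a mitochondrial reductase, and BTG2, an antiproliferative factor, were not analysed here. The 28 genes had 49 probes: 12 genes had 1 probe, 11 had 2 and 5 had 3.

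p53 accumulates when DNA is damaged or a cell is otherwise stressed, binds response elements near its targets and raises their transcription. CDKN1A (p21) then stops the cell cycle, BAX, BBC3, FAS and TNFRSF10B promote cell death, XPC, DDB2, POLH and RRM2B serve DNA repair, and MDM2, PPM1D and CCNG1 feed back on p53. CDKN2A (p16) and CDKN2B (p15) bind CDK4 and CDK6 and are often silenced by promoter methylation in tumours. The question was which arrays carried high levels of these genes and how each treatment moved them.

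The series compared established human cancer cell lines given both drugs, 5-Aza-CdR alone, clorgyline alone or neither, with 2 arrays for each of the 12 groups and 24 Illumina HumanHT-12 V4 arrays in all. T24 is a urinary bladder carcinoma line, HL-60 a promyelocytic leukemia line and HCT116 a colorectal carcinoma line. As these lines are described, HL-60 lacks p53, T24 carries a mutant p53 and HCT116 has wild-type p53. The p53 protein and its binding were not measured here. 5-Aza-CdR (5-Aza-2'-deoxycytidine) inhibits DNA methyltransferases, and clorgyline, a monoamine oxidase inhibitor, served to inhibit the histone demethylase LSD1. The 5-Aza-CdR dose, over 24 hours, was 1.0 µM in T24, 0.1 µM in HL-60 and 0.3 µM in HCT116, the daily clorgyline dose was 10 µM, and RNA was taken on day 18 from T24 and HL-60 and on day 20 from HCT116. Nothing in the labels or methods says that the 2 arrays of a group came from separate cultures, so every p-value measures the spread between these arrays, which may be technical.

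The labels T24 and HCT116 went against the data in part, and this bears on every result for those arrays, the comparison of HL-60 with T24 included. Over all probes, the 6 arrays labelled HCT116 treated correlated with the 8 arrays labelled T24 at a median Pearson r of 0.985, but with the 2 arrays labelled HCT116 control at 0.907. Among themselves the T24-labelled arrays reached a median r of 0.985. EPCAM, an epithelial surface marker, lay at the 98.9th to 99.3rd percentile of the array on the treated HCT116-labelled arrays, at the 99.1st to 99.3rd on the T24-labelled arrays and at the 72.6th to 74.6th on the HCT116-labelled controls. CDX2, an intestinal transcription factor, lay at the 80.6th to 86.5th percentile on the treated HCT116-labelled arrays, at the 78.2nd to 84.0th on the T24-labelled arrays and at the 11.0th to 22.5th on the HCT116-labelled controls. CDH2, a mesenchymal cadherin, lay at the 1.70th to 79.6th percentile on the treated HCT116-labelled arrays, at the 13.8th to 79.5th on the T24-labelled arrays and at the 97.8th to 98.5th on the HCT116-labelled controls. On every T24-labelled array 4 of 6 markers listed for T24 (VIM, CAV1, AXL and S100A4) lay above the 75th percentile, as did 4 of 10 colon markers (CDH1, EPCAM, CDX2 and CLDN3) and none of 6 urothelial markers. On every treated HCT116-labelled array the same 4 T24 markers lay above it, with 2 of the 10 colon markers, EPCAM and CDX2. On both HCT116-labelled controls 4 T24 markers, VIM, CAV1, CDH2 and AXL, lay above it and none of the colon markers. On the HL-60-labelled arrays 5 of 8 promyelocytic markers, MPO, AZU1, PRTN3, CTSG and SPI1, lay above that percentile on every array. The names T24 and HCT116 are therefore used below as labels only. Between the treated arrays and the controls labelled HCT116, treatment and a difference in the cells cannot be told apart.

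The deposited log2 values were normalized within each line, so levels were compared across lines only as percentiles among all probes of an array, with no test. Of the 28 genes, 12 lay above the 75th percentile on all 24 arrays and 5 at or below it on all of them. The 5 were FAS, a death receptor, MDM2, the ligase that degrades p53, PLK3 and POLH, a kinase and a DNA polymerase of the damage response, and SPATA18, a mitochondrial quality control gene. MDM2 lay between the 6.98th and 68.5th percentile over the 24 arrays, so its change could not be measured well above the dim end of any array.

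RPS27L, a ribosomal protein paralogue that p53 induces, and ZMAT3, an RNA-binding p53 target, lay at or above the 93.9th percentile on all 24 arrays, and so did CCNG1, the cyclin G1 gene. The level of CDKN1A set the HL-60-labelled arrays apart from the others: it lay at the 72.0th to 77.1st percentile on the HL-60-labelled arrays, at the 90.7th to 96.9th on the T24-labelled arrays and at the 85.4th to 96.8th on the HCT116-labelled arrays. GDF15, a secreted stress cytokine, lay at the 30.2nd to 60.1st percentile on the HL-60-labelled arrays, at the 76.6th to 90.5th on the T24-labelled arrays and at the 67.3rd to 96.9th on the HCT116-labelled arrays. CDKN2B lay at the 46.9th to 66.8th percentile on the HL-60-labelled arrays and at the 76.3rd to 80.1st on the T24-labelled arrays. PHLDA3, a repressor of the survival kinase AKT, and PLK2, a kinase of the damage response, were at or below the 34.5th percentile on every HL-60-labelled array.

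Taken over the 28 genes of an array, the median percentile was 73.6 to 75.7 on the 8 HL-60-labelled arrays, 80.2 to 82.0 on the 8 T24-labelled arrays and 78.8 to 82.4 on the 6 treated HCT116-labelled arrays. It was 84.4 and 84.1 on the 2 HCT116-labelled controls, the highest values of the 24 arrays. These medians describe the arrays and were not tested. The markers went against the T24 and HCT116 labels in part, so the p53 status of the cells cannot be read from those labels.

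**Figure D1:**
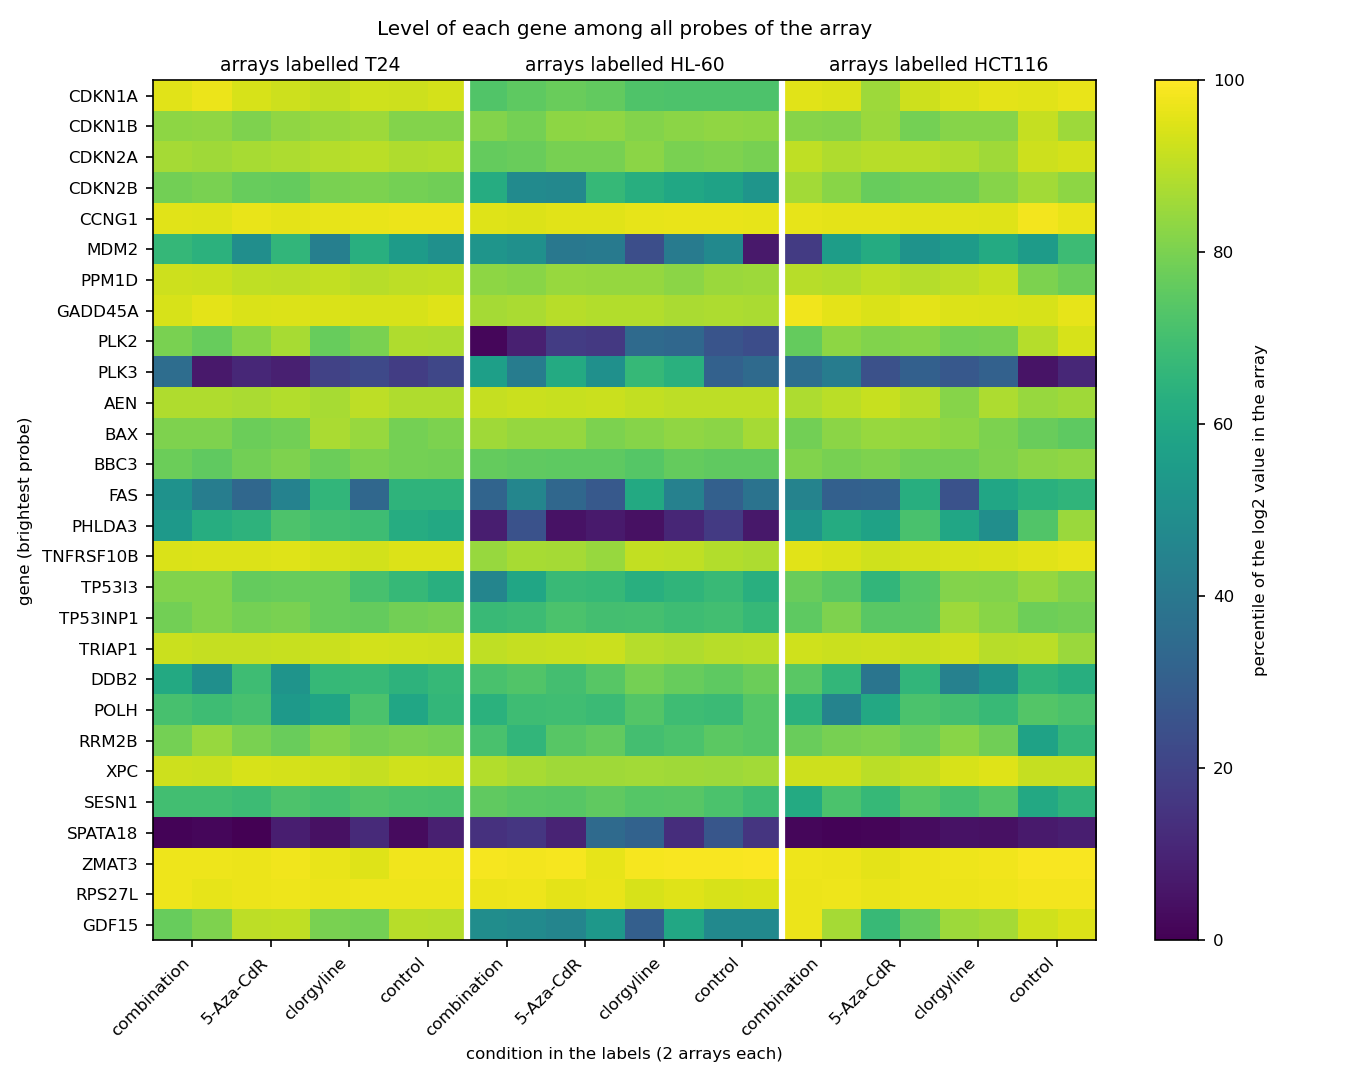
Percentile of each of the 28 genes (rows, brightest probe) among all probes of each array (columns, 2 per condition), with arrays grouped by the cell line in the labels. CDKN1A, GDF15, PLK2 and PHLDA3 are dimmer on the HL-60-labelled arrays than on the others, and MDM2, FAS, PLK3, POLH and SPATA18 stay at or below the 75th percentile on all 24 arrays.

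In HL-60, several p53 targets changed under 5-Aza-CdR, alone or combined, in both directions. With the combinatorial treatment RPS27L, SESN1 and AEN rose and CCNG1, PPM1D, CDKN1B and RRM2B fell against control (limma, adjusted p under 0.05 over all probes). These were 7 of 28 genes (25%), while 16.3% of all genes were called. With 5-Aza-CdR alone RPS27L, TRIAP1, CDKN1A, AEN and SESN1 rose and ZMAT3 and CCNG1 fell, again 7 of 28 (25%), with 9.97% of all genes called. Brighter genes were called more often. Among genes above the 75th percentile of the line, 5 of 13 of these genes (38.5%) were called with either treatment, against a background of 35.9% under the combinatorial treatment and 21.8% under 5-Aza-CdR, so under the combinatorial treatment the share lay near the background. The median log2 change of the 28 genes was -0.00081 under the combinatorial treatment and -0.0045 under 5-Aza-CdR, beside -0.0089 and -0.0035 over all genes.

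RPS27L had log2 values of 12.66 and 12.74 under the combinatorial treatment, 12.11 and 12.34 under 5-Aza-CdR and 11.35 and 11.80 under clorgyline, against 11.41 and 11.48 in HL-60 control. The combinatorial and 5-Aza-CdR arrays all lay above both controls, and the clorgyline arrays overlapped them. Its log2 change was 1.26 ± 0.13 (limma standard error, n = 2 arrays per group here and below, adjusted p = 6.49e-05) under the combinatorial treatment and 0.78 ± 0.13 (limma, adjusted p = 0.00312) under 5-Aza-CdR. Both calls held when any 1 array of the groups compared was left out. The second RPS27L probe lay near background and showed a log2 change of -0.04 under the combinatorial treatment. Whether the bright probe also detects the paralogue RPS27 was not tested.

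SESN1, a stress-induced inhibitor of the mTORC1 growth pathway, had log2 values of 8.39 and 8.32 under the combinatorial treatment and 8.28 and 8.40 under 5-Aza-CdR, against 8.09 and 7.91 in HL-60 control. Its change was 0.36 ± 0.09 (limma, adjusted p = 0.0238) and 0.34 ± 0.09 (limma, adjusted p = 0.0443) with these treatments. AEN, a nuclease that acts in p53-dependent cell death, had log2 values of 10.72 and 10.88 under the combinatorial treatment and 10.81 and 10.84 under 5-Aza-CdR, against 10.46 on both control arrays, and rose by 0.34 ± 0.09 (limma, adjusted p = 0.0276) and 0.36 ± 0.09 (limma, adjusted p = 0.0295). For both genes the treated arrays lay above the controls. These calls were small and unstable: under 5-Aza-CdR each was lost without any 1 of the 4 arrays (adjusted p 0.0578 to 0.279 for SESN1 and 0.0856 to 0.157 for AEN). With the combinatorial treatment SESN1 passed only without HL-60 control replicate 1 (adjusted p 0.0344 to 0.184 over the 4 arrays left out) and AEN only without combination replicate 1 (0.0397 to 0.2). After quantile normalization of the 24 arrays both SESN1 calls were lost, at changes of 0.18 and 0.17 (limma, adjusted p 0.0526 and 0.0873).

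The 3 genes that rose with both treatments each held a p53 half-site, the decamer from which p53 response elements are built, in the 250 bases before an annotated transcription start. The sequences are shown with PLK2, which held one too and is described with the HCT116-labelled arrays. They were read from RefSeq (GRCh38.p14) 5′ to 3′ on the gene's strand, and the 10 bases that match the half-site in full on the gene's strand are in capitals.
RPS27L, chr15:63157478-63157727, minus strand, half-site 59 bases before the start: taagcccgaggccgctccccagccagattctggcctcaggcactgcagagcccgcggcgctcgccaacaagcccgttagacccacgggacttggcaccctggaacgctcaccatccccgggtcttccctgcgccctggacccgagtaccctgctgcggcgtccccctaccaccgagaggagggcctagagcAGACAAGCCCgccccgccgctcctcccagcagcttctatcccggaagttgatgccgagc
SESN1, chr6:109008989-109009238, minus strand, 1 of 3 annotated starts, half-site 49 bases before it: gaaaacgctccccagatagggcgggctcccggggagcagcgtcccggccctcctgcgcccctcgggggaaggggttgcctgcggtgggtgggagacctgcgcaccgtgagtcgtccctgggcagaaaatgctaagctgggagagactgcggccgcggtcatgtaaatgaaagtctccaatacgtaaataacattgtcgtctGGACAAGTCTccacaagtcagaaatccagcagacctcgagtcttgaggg
AEN, chr15:88621090-88621339, plus strand, half-site 34 bases before the start: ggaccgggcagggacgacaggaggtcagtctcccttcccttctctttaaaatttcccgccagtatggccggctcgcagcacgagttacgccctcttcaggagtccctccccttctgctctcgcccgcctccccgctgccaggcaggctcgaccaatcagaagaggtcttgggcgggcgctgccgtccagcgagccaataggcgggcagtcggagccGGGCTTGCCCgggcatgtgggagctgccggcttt
PLK2, chr5:58460087-58460336, minus strand, half-site 132 bases before the start: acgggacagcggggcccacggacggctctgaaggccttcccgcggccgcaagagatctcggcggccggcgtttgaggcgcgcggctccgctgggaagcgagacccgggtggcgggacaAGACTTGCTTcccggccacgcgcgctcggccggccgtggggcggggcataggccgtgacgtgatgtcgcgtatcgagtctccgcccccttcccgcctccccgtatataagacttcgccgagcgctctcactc

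The half-site occurred in this window in 6 of the 25 listed genes with a promoter in the table (24.0%), FAS and FDXR being the others, and in 1857 of all 27305 genes there (6.80%). Counted by promoter, it occurred in 6 of 37 (16.2%) and in 1957 of 35116 (5.57%). The list was drawn from known p53 targets and CDK inhibitors. A higher share can follow from that choice and is no result about these arrays. The half-site reads the same way on both strands, so 1 search covered both. A match describes letters only, and a half-site match was found in FAS, which stayed dim, and not within this window in CDKN1A.

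TRIAP1, an inhibitor of apoptosis that p53 induces, had log2 values of 10.79 and 10.86 under 5-Aza-CdR, against 10.30 and 10.42 in HL-60 control, a rise of 0.47 ± 0.09 (limma, adjusted p = 0.00827) that was lost without control replicate 1 or 5-Aza-CdR replicate 2 (adjusted p 0.022 to 0.0914 over the 4 arrays left out). CDKN1A had log2 values of 8.17 and 8.38 under the combinatorial treatment, 8.57 and 8.46 under 5-Aza-CdR and 8.14 and 8.10 under clorgyline, against 8.10 and 8.11 in control. It rose by 0.41 ± 0.09 under 5-Aza-CdR (limma, adjusted p = 0.0195), a call lost without any 1 of the 4 arrays (adjusted p 0.053 to 0.115), and its change under the combinatorial treatment was 0.17 ± 0.09 (limma, adjusted p = 0.372). All of these CDKN1A levels remained at or below the 77.1st percentile of their array.

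CCNG1 had log2 values of 11.70 and 11.57 under the combinatorial treatment, 11.87 and 11.91 under 5-Aza-CdR and 12.28 and 12.40 under clorgyline, against 12.42 and 12.16 in HL-60 control. It fell by 0.65 ± 0.10 under the combinatorial treatment (limma, adjusted p = 0.00122), a call that held without any 1 array. With 5-Aza-CdR it fell by 0.40 ± 0.10 (limma, adjusted p = 0.0343), which passed only without control replicate 2 (adjusted p 0.0225 to 0.289 over the 4 arrays left out). ZMAT3 had log2 values of 13.95 and 12.26 under 5-Aza-CdR, 13.88 and 13.24 under the combinatorial treatment and 14.04 and 14.22 under clorgyline, against 14.54 and 14.72 in control. All 6 treated arrays lay below both controls. Under 5-Aza-CdR ZMAT3 fell by 1.53 ± 0.38 (limma, adjusted p = 0.0315), which rested on 5-Aza-CdR replicate 2, since the call passed only without 5-Aza-CdR replicate 1 (adjusted p 1.76e-05 to 0.17 over the 4 arrays left out). The 2 dimmer ZMAT3 probes gave log2 changes of -0.26 and -0.19, neither called.

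PPM1D, the phosphatase that switches p53 signalling off, had log2 values of 9.32 and 9.18 under the combinatorial treatment, against 9.61 and 9.68 in HL-60 control. It fell by 0.40 ± 0.09 (limma, adjusted p = 0.016), and the call passed only without combination replicate 1 (adjusted p 0.0315 to 0.123 over the 4 arrays left out). CDKN1B (p27), a CDK inhibitor of the same family as p21, had log2 values of 9.09 and 8.81, against 9.37 and 9.29 in control, and fell by 0.38 ± 0.10 (limma, adjusted p = 0.0337). RRM2B, a ribonucleotide reductase subunit for DNA repair, had log2 values of 8.05 and 7.78, against 8.33 and 8.24 in control, and fell by 0.37 ± 0.11 (limma, adjusted p = 0.0437). Both were lost when combination replicate 2 or either control array was left out (adjusted p 0.0155 to 0.28 for CDKN1B and 0.0244 to 0.328 for RRM2B). The other probe of each gene had a change of the other sign that was not called, 0.26 for CDKN1B and 0.07 for RRM2B.

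CDKN2A had log2 values of 8.50 and 8.59 under the combinatorial treatment, against 8.99 and 8.84 in HL-60 control, a change of -0.38 ± 0.12 (limma, adjusted p = 0.0608). It passed with the replicate number as a block (limma, adjusted p = 0.0418) and when the other groups were left out of the fit (limma, adjusted p = 0.0283), with adjusted p 0.0283 to 0.554 over 11 alternatives. CDKN2B, MDM2 and GDF15 showed changes of 0.02 ± 0.11, 0.16 ± 0.10 and 0.01 ± 0.09 under the combinatorial treatment, none called by limma (adjusted p 0.973, 0.442 and 0.987). Their 8 HL-60-labelled arrays lay at or below the 66.8th percentile. Clorgyline alone gave 0 calls by limma among the 28 genes, with 1.12% of all genes called and 5 of the 28 at an unadjusted p under 0.05. The combinatorial treatment against 5-Aza-CdR gave 0 calls, with 3.78% of all genes called and 11 of the 28 at an unadjusted p under 0.05, and the excess over additivity (the combinatorial change minus the sum of the single-drug changes) gave 0, with 0.299% and 5.

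**Figure D2:**
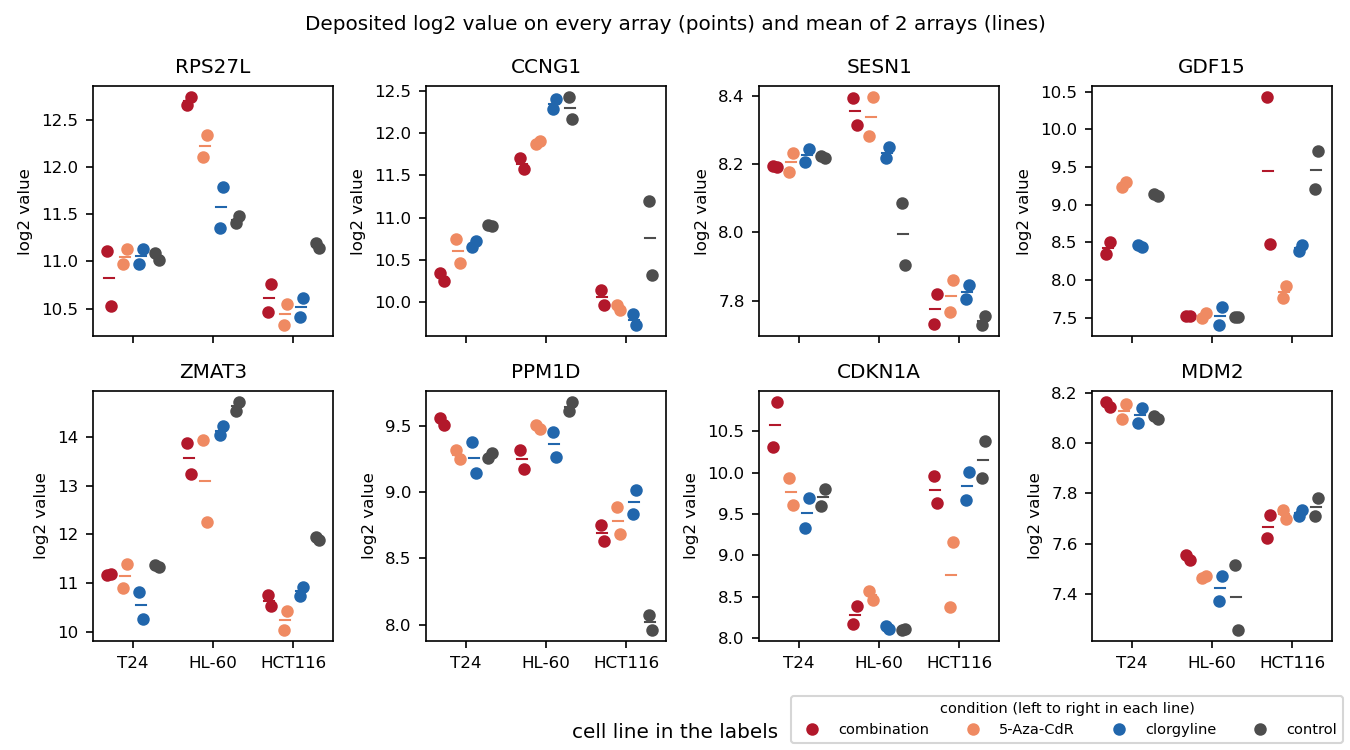
Deposited log2 value (vertical axis) of 8 genes on each of the 24 arrays, by cell line in the labels and condition, with a line at the mean of the 2 arrays and values comparable only within a line. In HL-60, RPS27L under the combinatorial treatment lies at 12.66 and 12.74 against 11.41 and 11.48 in control, and PPM1D and ZMAT3 set the 2 HCT116-labelled controls apart from all treated arrays of that label.

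In T24, few of these genes changed and GDF15 changed most clearly, downward wherever clorgyline was given. GDF15 had log2 values of 8.34 and 8.51 under the combinatorial treatment, 9.24 and 9.31 under 5-Aza-CdR and 8.47 and 8.44 under clorgyline, against 9.14 and 9.12 in T24 control. The 4 arrays under clorgyline lay below the 4 without it, with no overlap. GDF15 fell by 0.70 ± 0.06 under the combinatorial treatment against control (limma, adjusted p = 0.00286) and fell by 0.85 ± 0.06 against 5-Aza-CdR (limma, adjusted p = 0.00309), and both calls held without any 1 array. With clorgyline alone it fell by 0.67 ± 0.06 (limma, adjusted p = 0.0142), but this call was lost without any 1 of the 4 arrays (adjusted p 0.079 to 0.156).

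TP53I3, a quinone oxidoreductase that p53 induces, had log2 values of 8.52 and 8.52 under the combinatorial treatment, 8.34 and 8.35 under 5-Aza-CdR and 8.34 and 8.21 under clorgyline, against 8.17 and 8.14 in T24 control. It rose by 0.37 ± 0.04 under the combinatorial treatment (limma, adjusted p = 0.0103), and the call passed only without combination replicate 1 (adjusted p 0.0437 to 0.0905 over the 4 arrays left out). CCNG1 had log2 values of 10.35 and 10.25 under the combinatorial treatment, against 10.91 and 10.90 in control, and fell by 0.60 ± 0.09 (limma, adjusted p = 0.025), a call lost without any 1 of the 4 arrays (adjusted p 0.0626 to 0.163). Together these made 3 of 28 calls (10.7%) under the combinatorial treatment, with 5.07% of all genes called. The single call under clorgyline was 1 of 28 (3.57%), with 0.544% of all genes called, and that against 5-Aza-CdR was 1 of 28 (3.57%), with 2.35% of all genes called. These shares make no allowance for brightness, and 19 of the 28 genes lay above the 75th percentile on every T24-labelled array.

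CDKN1A showed the largest change of the 28 genes in T24 and was not called. It had log2 values of 10.31 and 10.86 under the combinatorial treatment, 9.93 and 9.60 under 5-Aza-CdR and 9.33 and 9.69 under clorgyline, against 9.60 and 9.81 in control. Both combinatorial arrays lay above the other 6, and the change of 0.88 ± 0.22 (limma, adjusted p = 0.115) did not pass, the 2 arrays differing by more than the controls. CDKN2A, CDKN2B, CDKN1B and MDM2 showed changes of -0.21 ± 0.04, 0.02 ± 0.02, 0.09 ± 0.05 and 0.05 ± 0.03 under the combinatorial treatment (limma, adjusted p 0.0623, 0.782, 0.532 and 0.543). Another CDKN2A probe, used in the comparison of HL-60 with T24, changed by 0.07 in T24. With 5-Aza-CdR alone limma called 0 of the 28 genes and 0.175% of all genes, with 7 of the 28 at an unadjusted p under 0.05. The excess over additivity gave 0 calls by limma, with 0.569% of all genes called and 6 of the 28 at an unadjusted p under 0.05.

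**Figure D3:**
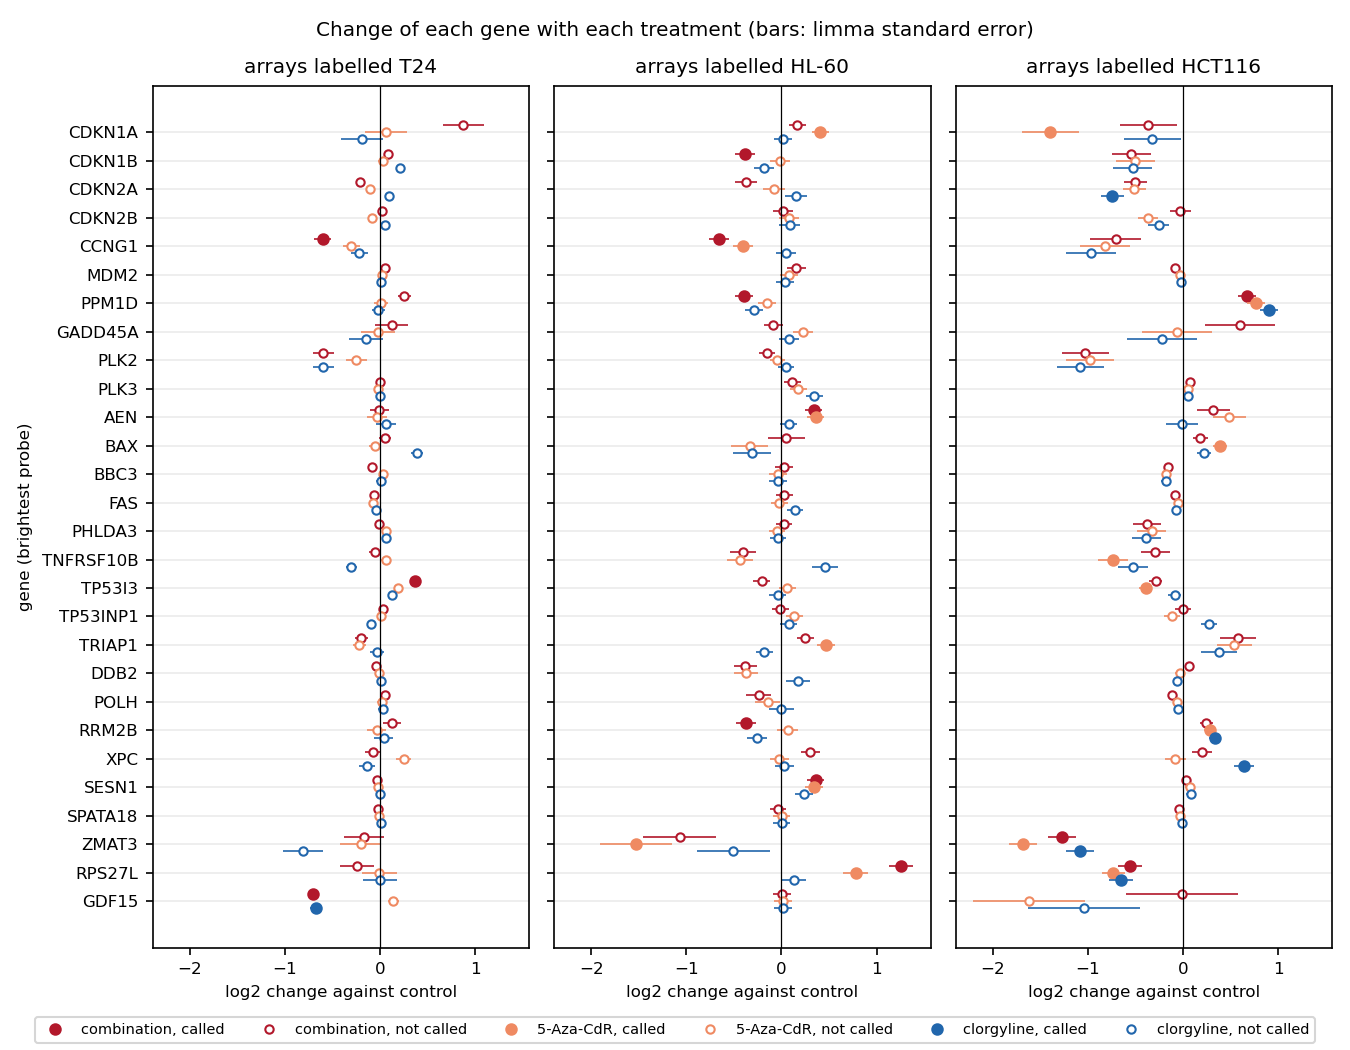
log2 change against control (horizontal axis, bars are limma standard errors) of the 28 genes with each treatment, in the 3 lines of the labels. Filled points passed limma's adjusted p under 0.05 over all probes. RPS27L rose under 5-Aza-CdR and the combinatorial treatment in HL-60, and GDF15 fell under clorgyline and the combinatorial treatment in T24. RPS27L was lower with each treatment than in the HCT116-labelled controls, where treatment and a difference in the cells cannot be told apart.

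HL-60 and T24 differed in their response of 3 of the 28 genes (10.7%) to the combinatorial treatment, when the difference itself was tested over all arrays, while 12.2% of all genes did. RPS27L changed by 1.26 in HL-60 and by -0.24 in T24, a difference of 1.49 ± 0.24 (limma, adjusted p = 0.000852). PPM1D changed by -0.40 in HL-60 and by 0.26 in T24, a difference of -0.66 ± 0.13 (limma, adjusted p = 0.00425). SESN1 changed by 0.36 in HL-60 and by -0.03 in T24, a difference of 0.39 ± 0.08 (limma, adjusted p = 0.00686). All 3 held without any 1 of the 8 arrays, but SESN1 was lost after quantile normalization of the 24 arrays, at a difference of 0.24 ± 0.10 (limma, adjusted p = 0.288). The 5-Aza-CdR dose differed between the lines, at 0.1 µM in HL-60 and 1.0 µM in T24, so line and dose cannot be told apart.

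On the HCT116-labelled arrays the 2 controls stood apart from all other arrays, and the levels of the 28 genes there are given beside those of all genes. ZMAT3, RPS27L, CDKN2A, PLK2, BBC3 and PHLDA3 lay above all 14 other arrays labelled T24 or HCT116 on both controls, 6 of 28 genes (21.4%), with 12.0% of all genes doing so. PPM1D, BAX and RRM2B lay below all 14, 3 of 28 (10.7%), with 14.0% of all genes doing so. These are descriptions by percentile in the array, with the brightest probe of the 16 arrays. The shares of all genes make no allowance for brightness, and 16 of the 28 genes lay above the 75th percentile on every HCT116-labelled array. ZMAT3 lay at the 95.3rd to 97.9th percentile on the 14 arrays, against 99.0 and 98.9 on the HCT116-labelled controls. RPS27L lay at the 96.1st to 97.6th, against 98.2 on both controls. PLK2 lay at the 76.5th to 88.1st, against 89.0 and 94.1, and PHLDA3 at the 49.3rd to 72.2nd, against 73.0 and 85.0. PPM1D lay at the 88.3rd to 92.2nd, against 80.4 and 77.5, and RRM2B at the 77.1st to 84.5th, against 57.5 and 66.5.

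**Figure D4:**
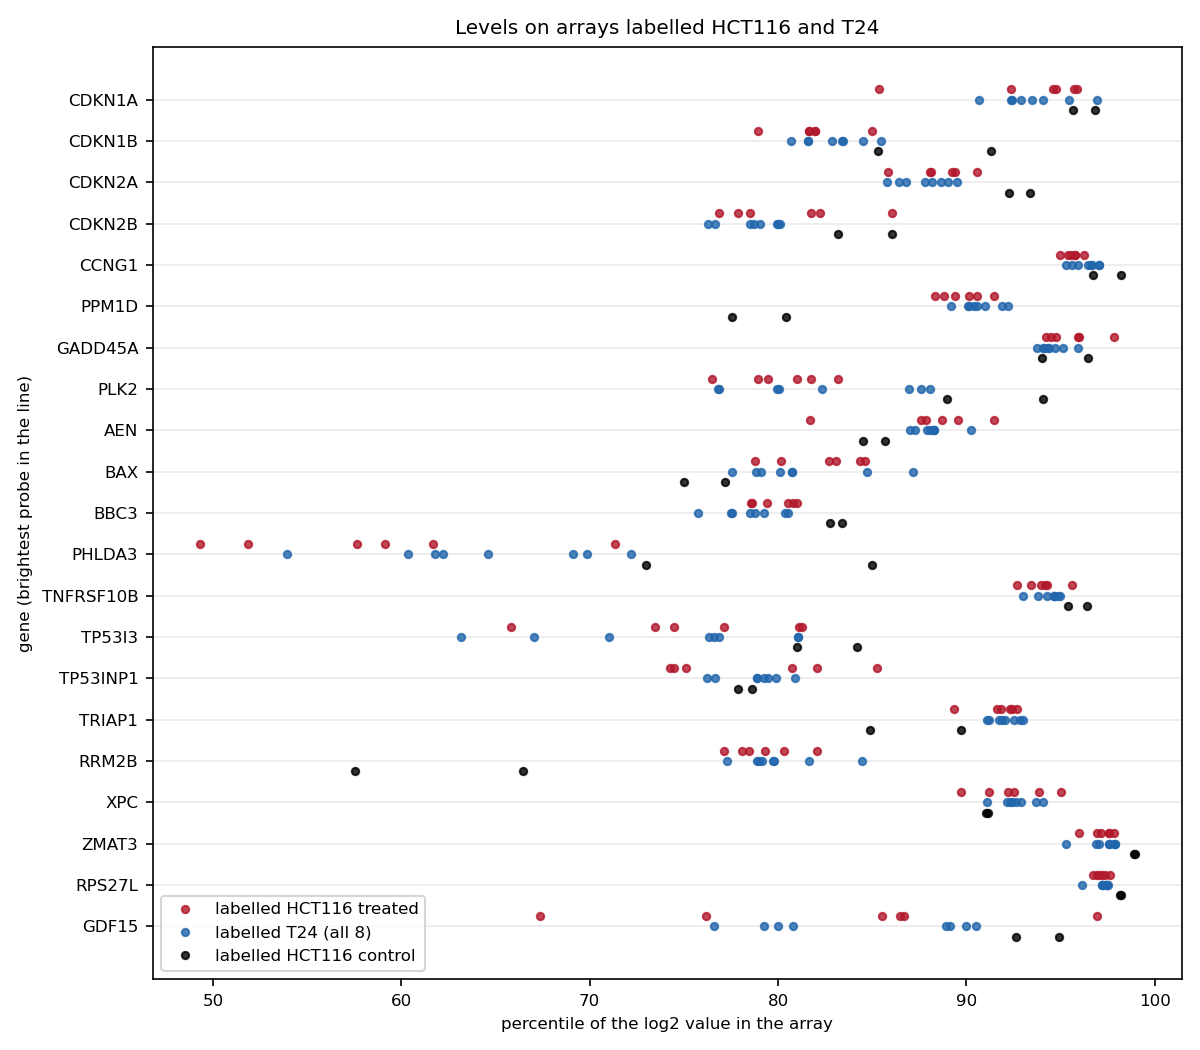
Percentile in the array (horizontal axis) of the 21 genes that exceeded the 75th percentile on any array labelled HCT116 or T24, with 1 point per array. The 2 HCT116-labelled controls (black) lie to the right of the 14 other arrays for ZMAT3, RPS27L, CDKN2A, PLK2, BBC3 and PHLDA3. They lie to the left for PPM1D, BAX and RRM2B, while the treated HCT116-labelled arrays (red) overlap the T24-labelled arrays (blue).

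Against those controls limma called 3 of 28 genes (10.7%) under the combinatorial treatment, 8 (28.6%) under 5-Aza-CdR and 6 (21.4%) under clorgyline, with 15.7%, 16.2% and 15.3% of all genes called. Among genes above the 75th percentile of the line these were 3 of 20 (15.0%), 8 of 20 (40.0%) and 6 of 20 (30%), against backgrounds of 32.2%, 33.7% and 30.5%, so the shares lay near or below the background. ZMAT3 had log2 values of 10.75 and 10.53 under the combinatorial treatment, 10.04 and 10.43 under 5-Aza-CdR and 10.74 and 10.93 under clorgyline, against 11.95 and 11.87 in HCT116-labelled control. It fell with each treatment, at log2 changes of -1.27 ± 0.14 (limma, adjusted p = 0.00462), -1.68 ± 0.14 (limma, adjusted p = 0.00169) and -1.08 ± 0.14 (limma, adjusted p = 0.00826). A second ZMAT3 probe changed by -0.99, -0.94 and -0.90. The clorgyline call was lost without clorgyline replicate 1 (adjusted p 0.0191 to 0.0609 over the 4 arrays left out), and the other 2 held without any 1 array.

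RPS27L had log2 values of 10.47 and 10.76 under the combinatorial treatment, 10.33 and 10.55 under 5-Aza-CdR and 10.42 and 10.61 under clorgyline, against 11.19 and 11.14 in HCT116-labelled control. It fell with each treatment, at log2 changes of -0.55 ± 0.12 (limma, adjusted p = 0.0479), -0.73 ± 0.12 (limma, adjusted p = 0.0182) and -0.65 ± 0.12 (limma, adjusted p = 0.0281). The clorgyline call was lost without any 1 array (adjusted p 0.0596 to 0.156), the 5-Aza-CdR call without either 5-Aza-CdR array (0.0409 to 0.111), and the combinatorial call passed only without combination replicate 2 (0.0482 to 0.184). PPM1D had log2 values of 8.75 and 8.63 under the combinatorial treatment, 8.89 and 8.68 under 5-Aza-CdR and 8.83 and 9.02 under clorgyline, against 8.08 and 7.96 in control, and rose by 0.67 ± 0.10 (limma, adjusted p = 0.0103), 0.77 ± 0.10 (limma, adjusted p = 0.00618) and 0.91 ± 0.10 (limma, adjusted p = 0.00361). The combinatorial call was lost without combination replicate 1 (adjusted p 0.0163 to 0.0656), and the other 2 held.

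CDKN1A had log2 values of 9.95 and 9.63 under the combinatorial treatment, 8.37 and 9.16 under 5-Aza-CdR and 9.67 and 10.01 under clorgyline, against 9.93 and 10.38 in HCT116-labelled control. It was lowest under 5-Aza-CdR, where it fell by 1.39 ± 0.30 (limma, adjusted p = 0.0386), a call lost without control replicate 2 or 5-Aza-CdR replicate 1 (adjusted p 0.0334 to 0.139), and its changes under the combinatorial treatment and clorgyline were -0.36 ± 0.30 and -0.32 ± 0.30 (limma, adjusted p 0.608 and 0.66). GDF15 had log2 values of 10.42 and 8.48 under the combinatorial treatment, 7.77 and 7.92 under 5-Aza-CdR and 8.39 and 8.46 under clorgyline, against 9.21 and 9.72 in control. Combination replicate 1 lay above both controls and replicate 2 below both, and no GDF15 change was called by limma (adjusted p 0.996, 0.182 and 0.418). When the other groups, the combination pair among them, were left out of the fit, the GDF15 change of -1.62 under 5-Aza-CdR passed (limma, adjusted p = 0.0365, the range over 11 alternatives being 0.0365 to 0.461).

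The remaining calls were each made with only some of the treatments. With 5-Aza-CdR, TNFRSF10B (the TRAIL receptor DR5) fell by 0.73 ± 0.16 (limma, adjusted p = 0.0371), TP53I3 fell by 0.39 ± 0.07 (limma, adjusted p = 0.0205), and BAX rose by 0.39 ± 0.08 (limma, adjusted p = 0.0295). TNFRSF10B and BAX were lost when control replicate 2 or either 5-Aza-CdR array was left out (adjusted p 0.0186 to 0.198 and 0.0499 to 0.155), and TP53I3 without either 5-Aza-CdR array (0.00506 to 0.128). With clorgyline, CDKN2A had log2 values of 8.61 and 8.41, against 9.14 and 9.36 in HCT116-labelled control, and fell by 0.74 ± 0.12 (limma, adjusted p = 0.0159), lost without clorgyline replicate 2 (0.0147 to 0.0942). XPC, a sensor of DNA lesions, had 9.45 and 9.75, against 8.95 and 8.97, and rose by 0.64 ± 0.11 (limma, adjusted p = 0.0182), a call that held without any 1 array. RRM2B rose by 0.34 ± 0.07 under clorgyline (limma, adjusted p = 0.0287) and by 0.29 ± 0.07 under 5-Aza-CdR (limma, adjusted p = 0.0467). The first passed only without clorgyline replicate 2 (adjusted p 0.0288 to 0.108) and the second was lost without any 1 array (0.083 to 0.234), and its other probe changed by -0.06 and -0.14. With the combinatorial treatment CDKN2A, CDKN2B, CDKN1B and MDM2 showed changes of -0.50 ± 0.12, -0.03 ± 0.11, -0.54 ± 0.21 and -0.08 ± 0.04 (limma, adjusted p 0.0578, 0.939, 0.204 and 0.394). CDKN1B passed with each treatment when control replicate 2 was left out, at a log2 change of -0.85 (limma, adjusted p = 0.0138) under the combinatorial treatment, but against the T24-labelled controls its differences with the combinatorial treatment, 5-Aza-CdR and clorgyline were positive, at 0.27, 0.03 and 0.16. CDKN2A passed under the combinatorial treatment with the mean of its probes, with 1 probe per gene, with bright probes alone and without control replicate 1 (limma, adjusted p 0.0358, 0.0485, 0.0362 and 0.0437, with 0.0358 to 0.218 over 11 alternatives), and its difference from the T24-labelled controls was 0.13.

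Between the treated arrays labelled HCT116, none of the 28 genes was called. The combinatorial treatment against 5-Aza-CdR gave 0 calls by limma among the 28 genes, with 0.0% of all genes called and 7 of the 28 at an unadjusted p under 0.05, and clorgyline against 5-Aza-CdR gave 0, with 0.649% of all genes called and 6 of the 28. CDKN1A was 1.03 ± 0.30 and 1.07 ± 0.30 higher than under 5-Aza-CdR in these comparisons (limma, adjusted p 0.857 and 0.395). Set beside the T24-labelled controls on values quantile-normalized over the 24 arrays, with no test, the median absolute difference of the 28 genes was 0.09 for the combinatorial treatment, 0.12 for 5-Aza-CdR and 0.13 for clorgyline on the HCT116-labelled arrays, and 0.33 for the HCT116-labelled controls. On that scale RPS27L differed by -0.01, -0.19 and -0.11 and PPM1D by -0.19, -0.08 and 0.09 with the 3 treatments, against 0.56 and -1.13 for the HCT116-labelled controls. CDKN1A differed by 0.57, -0.60 and 0.62 and ZMAT3 by -0.29, -0.71 and -0.09, against 0.95 and 1.04. The size of the PPM1D and RPS27L calls thus depended on which control arrays were used. For PPM1D under the combinatorial treatment and 5-Aza-CdR the direction did too.

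Over the 15 comparisons within lines, 16 of the 28 genes (57.1%) were called in at least 1 and 12 in none, while 35.8% of all genes were called in at least 1, with no allowance for brightness. The 12 were CDKN2B, MDM2, TP53INP1, BBC3, FAS, DDB2, PLK2, PLK3, PHLDA3, SPATA18, POLH and GADD45A. PLK2 and GADD45A are given here because of their changes, chosen after their values were seen. In T24 it had log2 values of 8.47 and 8.35 under the combinatorial treatment, 8.59 and 8.92 under 5-Aza-CdR and 8.35 and 8.47 under clorgyline, against 9.03 and 8.98 in control. All 6 treated arrays lay below both controls, at changes of -0.59 ± 0.11, -0.25 ± 0.11 and -0.60 ± 0.11 (limma, adjusted p 0.051, 0.684 and 0.109). On the HCT116-labelled arrays PLK2 had 7.93 and 8.23 under the combinatorial treatment, 8.10 and 8.14 under 5-Aza-CdR and 8.01 and 8.03 under clorgyline, against 8.70 and 9.50 in control, at changes of -1.02 ± 0.25, -0.98 ± 0.25 and -1.08 ± 0.25 (limma, adjusted p 0.0602, 0.0677 and 0.0519). GADD45A, a stress sensor that acts in growth arrest and DNA repair, had 10.90 and 10.02 under the combinatorial treatment, against 9.49 and 10.23 in HCT116-labelled control, and the groups overlapped.

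Further p53 targets, 36 of 38 listed with a probe, changed in both directions. The shares of all genes given here and for the lists below make no allowance for brightness. Among genes above the 75th percentile of the line, 35.9% were called under the combinatorial treatment in HL-60 and 32.2% on the HCT116-labelled arrays. No such share was taken in T24. With the combinatorial treatment 6 rose and 6 fell in HL-60 (33.3%, with 16.3% of all genes called). The 4 largest changes were falls, NOTCH1 at -1.39 ± 0.15 (limma, adjusted p = 9.7e-05), TP53I13 at -0.85 ± 0.16 (limma, adjusted p = 0.0033), CYFIP2 at -0.65 ± 0.11 (limma, adjusted p = 0.00228) and SESN2 at -0.60 ± 0.11 (limma, adjusted p = 0.00264). The 6 that rose changed by 0.37 to 0.58. Under clorgyline alone 4 rose in HL-60 and none fell (11.1%, with 1.12% of all genes called). These were SERTAD1 at 0.82 ± 0.09, IER5 at 0.63 ± 0.09, SESN2 at 0.56 ± 0.11 and PIDD1 at 0.44 ± 0.09 (limma, adjusted p 0.000916, 0.00908, 0.0343 and 0.0378), so SESN2 was called in opposite directions under clorgyline and the combinatorial treatment. In T24, 1 rose and 2 fell (8.33%, with 5.07% of all genes called). KITLG fell by 1.58 ± 0.15 and CMBL fell by 0.87 ± 0.13, while TIGAR, a regulator of glycolysis, rose by 0.46 ± 0.06 (limma, adjusted p 0.0052, 0.0266 and 0.0154). Between the treated arrays and the controls labelled HCT116, 7 fell with each treatment and 3, 2 and 2 rose under the combinatorial treatment (27.8%, with 15.7% of all genes called), 5-Aza-CdR (25%, with 16.2%) and clorgyline (25%, with 15.3%). The changes under the combinatorial treatment were led by KITLG, the ligand of the receptor KIT, at 1.62 ± 0.29, IER5 at -1.01 ± 0.17, CMBL at 0.94 ± 0.12 and E2F7 at -0.84 ± 0.15 (limma, adjusted p 0.0219, 0.0165, 0.00652 and 0.0207). The median log2 change of the list under the combinatorial treatment was 0.03 in HL-60, 0.01 in T24 and -0.05 on the HCT116-labelled arrays.

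Of 15 measured regulators and relatives of p53, 2 rose and 1 fell in HL-60 under the combinatorial treatment (20%, with 16.3% of all genes called). The acetyltransferase EP300 rose by 0.79 ± 0.11 and the kinase HIPK2 by 0.61 ± 0.10, and the damage kinase ATM fell by 0.63 ± 0.10 (limma, adjusted p 0.000513, 0.00173 and 0.00105). In T24, PPP1R13L, an inhibitor of p53, fell by 0.30 ± 0.04 (limma, adjusted p = 0.0191) and no other was called (6.67%, with 5.07% of all genes called). The checkpoint kinase CHEK1 was higher by 1.34 ± 0.10 under the combinatorial treatment than in HCT116-labelled control, and PPP1R13L and EP300 were lower, at changes of -0.98 ± 0.18 and -0.48 ± 0.08 (limma, adjusted p 0.00107, 0.0253 and 0.0159). These were 3 of 15 (20%), with 15.7% of all genes called.

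Of 15 measured other CDK inhibitors, G1 cyclins, CDKs and pocket proteins, 4 rose in T24 under the combinatorial treatment and none fell (26.7%, with 5.07% of all genes called): CCND3 by 0.91 ± 0.10, CCND1 by 0.55 ± 0.10, CDKN1C (p57) by 0.41 ± 0.03 and CDKN2D (p19) by 0.38 ± 0.05 (limma, adjusted p 0.0102, 0.0471, 0.00149 and 0.0194). In HL-60, 1 rose and 4 fell (33.3%, with 16.3% of all genes called). CDKN3, a CDK-associated phosphatase, rose by 1.04 ± 0.15, while CCND3 and the pocket proteins RBL1 and RBL2 fell, at changes of -0.82 ± 0.16, -0.59 ± 0.10 and -0.53 ± 0.14 (limma, adjusted p 0.000868, 0.00592, 0.00276 and 0.0331). Against HCT116-labelled control, CCND1 fell by 1.16 ± 0.12 and CCNE1 and CDK2 rose by 0.92 ± 0.13 and 0.82 ± 0.18 under the combinatorial treatment (limma, adjusted p 0.00372, 0.00848 and 0.0429), 3 of 15 (20%), with 15.7% of all genes called.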

How the data were processed

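RNA of 24 samples was hybridised to Illumina HumanHT-12 V4 BeadChips. The values are log2 values that the authors deposited after Robust Spline Normalization with lumi (2.6.0 for T24 and HCT116, 2.8.0 for HL-60 in the submitters' processing notes). Sorted values differed by at most 0.00521 between arrays of a line, so lines had been normalized separately. Background correction was not given in the sources used here. Bead counts and detection values were not used, so precision is limited by the number of arrays.

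Of 47231 probes, 30113 had 1 gene symbol in GEO's platform annotation, 8 had several and 17110 were not listed there. In HL-60, 2 probes with missing values were left out. All probes of a line were fitted with limma 3.58.1 (R 4.3.3), with a mean per condition, 1 shared spread (4 residual degrees of freedom) and Benjamini-Hochberg adjustment over all probes, and called at an adjusted p under 0.05. Scripts were tested on simulated data. The share of all genes called uses the brightest probe of each gene, as for the 28 genes. A second fit over the 24 arrays compared HL-60 with T24.

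The genes and the further lists were chosen with earlier results of these data known. Genes called in any comparison, and CDKN1A, MDM2, GDF15, CDKN2A, CDKN2B and CDKN1B throughout, were named, with at most 4 called genes for each further list and comparison. Alternatives were the mean of the probes, 1 probe per gene, bright probes alone, quantile normalization of the 24 arrays, the study's limits (p under 0.01 before adjustment, over 2-fold), only the groups compared, a replicate block and each array left out.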

Additional observations from a re-analysis of the deposited data

Results flagged for a closer look

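The response to the combinatorial treatment differed between HL-60 and T24 for 3 of the 28 genes (10.7%), by limma's test of the difference between the changes. Of all genes 12.2% were called in this test, so the share was no higher than the background. The differences, HL-60 minus T24 on the log2 scale, were 1.49 for RPS27L, -0.66 for PPM1D and 0.39 for SESN1. The SESN1 difference was not called after quantile normalization of the 24 arrays (0.24, limma, adjusted p = 0.288). For RPS27L the 2 treated HL-60 arrays lay above both HL-60 controls, while 1 of the 2 treated T24 arrays lay above and 1 below its controls. The 5-Aza-CdR dose also differed between the lines.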

How the results depend on the processing

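Of the 36 calls made within a line among the 28 genes, 10 held without each array of the groups compared in turn, 7 were lost without any of them, and 19 held for some. Leaving out an array also removes a residual degree of freedom. The number of genes called then ranged, for control comparisons with the combinatorial treatment, 5-Aza-CdR and clorgyline, over 1 to 2, 0 to 0 and 0 to 1 in T24 (main 3, 0 and 1), 2 to 6, 1 to 4 and 0 to 0 in HL-60 (7, 7 and 0), and 1 to 6, 2 to 12 and 3 to 8 on HCT116-labelled arrays (3, 8 and 6). For the combinatorial treatment against 5-Aza-CdR it was 1 to 2 in T24 (1), 0 to 1 in HL-60 (0) and 0 to 0 on HCT116-labelled arrays (0), for excess over additivity 0 to 0 in T24 and 0 to 1 in HL-60 (0 each), for clorgyline against 5-Aza-CdR 0 to 0 (0), and for the difference between HL-60 and T24 3 to 4 (3).

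Under the limits of the study (p under 0.01 before adjustment, over 2-fold), counts became 0, 0 and 0 in T24 for the combinatorial treatment, clorgyline and the combinatorial treatment against 5-Aza-CdR, 1 and 1 in HL-60 for the combinatorial treatment and 5-Aza-CdR, 2 and 2 on HCT116-labelled arrays for 5-Aza-CdR and clorgyline, and 1 for HL-60 minus T24. Fitting just the groups of each comparison, they became 5, 2 and 0 for those T24 comparisons, 2 for clorgyline and 4 for 5-Aza-CdR in HL-60, and 3 for clorgyline and 5 for 5-Aza-CdR on HCT116-labelled arrays. Taking the mean of the probes gave 4 with 5-Aza-CdR in HL-60 and 4 on HCT116-labelled arrays. Quantile normalization gave 2 for clorgyline in T24, 4 for the combinatorial treatment in HL-60 and 5 on HCT116-labelled arrays, where bright probes alone gave 6. Quantile normalization lost the HL-60 calls of SESN1, CDKN1B and RRM2B under the combinatorial treatment and of SESN1 and ZMAT3 under 5-Aza-CdR, and the SESN1 difference between HL-60 and T24. The cause of these differences was not tested. The HCT116-labelled controls lay above the 14 other arrays for 6 genes and below them for 3 under quantile normalization too.

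Replicate numbers were shared across groups, and the deviations of arrays with the same number correlated at -0.12 to 0.21. Whether such arrays shared more than a number could not be decided from 1 correlation per pair of groups. With the replicate number as a block, the combinatorial treatment gave 1 call against 5-Aza-CdR in HL-60 and 5 against control on HCT116-labelled arrays, CDKN2A in HL-60 passed under the combinatorial treatment, and other counts stayed within 1.5 times.

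In an alternative chosen after seeing the data, the T24-labelled controls replaced the HCT116-labelled controls on quantile-normalized values, with no test. Of the 17 called changes, 4 then turned direction, for PPM1D with 5-Aza-CdR (-0.081) and the combinatorial treatment (-0.19), for RRM2B with 5-Aza-CdR (-0.012) and for TP53I3 with 5-Aza-CdR (0.11). Of 16 changes that were not called, in the 6 genes named throughout, 12 turned: CDKN1B with each treatment, CDKN1A and CDKN2B with clorgyline and the combinatorial treatment, CDKN2A with 5-Aza-CdR and the combinatorial treatment, MDM2 with 5-Aza-CdR and clorgyline, and GDF15 with the combinatorial treatment.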
